A study of Mus musculus with 24 samples.

Results

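The 40 genes described here encode glutathione transferases and the enzymes that work beside them against oxidants and reactive aldehydes. They were taken from a list of gene symbols, each matched to 1 Ensembl identifier of the count table. No measured value served as a rule for the choice, but earlier results of these data were known when it was made. All 40 were found among the 37991 genes of the table, and all 40 were among the 20035 genes that passed the filter on low counts. By role they comprise 13 cytosolic transferases, 4 mitochondrial or membrane-bound transferases, 4 enzymes that make or recycle glutathione, 3 glutathione peroxidases, 4 genes of the thioredoxin system, 6 peroxiredoxins, 4 superoxide dismutase and catalase genes, and the pair Nqo1 and Hmox1.

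RNA-seq was done on fat pads labelled subcutaneous inguinal from 24 female mice aged 26 weeks, 1 library a mouse. WSB/EiJ and CAST/EiJ are inbred strains derived from wild mice, NZO/HiLtJ is an inbred strain that becomes obese and diabetic, and C57BL/6J is the common laboratory reference. In each strain 3 mice were fed high-fat, high-sucrose chow, in which fat gave 45% of the calories and sucrose made up 34% of the weight. The other 3 were fed a standard diet in which fat gave 17% of the calories, and both diets began at 4 weeks of age. The 8 groups are the high-fat and standard mice of WSB/EiJ, of CAST/EiJ, of NZO/HiLtJ and of C57BL/6J, and no group carries an engineered allele. The study sought an adipocyte gene that protects against diabetes, so the comparisons ask how expression differs with the diet within a strain and between strains. A fat pad is a mixture of cells, and in such bulk RNA fewer cells of a type and less RNA per cell cannot be told apart.

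Glutathione is a small thiol that cells join to lipid aldehydes and drugs through glutathione transferases and spend on the reduction of peroxides through glutathione peroxidases. Peroxiredoxins reduce peroxides in parallel and are kept active by thioredoxin, thioredoxin reductase and sulfiredoxin, while superoxide dismutases turn superoxide into hydrogen peroxide, which catalase breaks down. Many of these genes are classical targets of NRF2, a transcription factor that accumulates under oxidative or electrophilic stress and binds antioxidant response elements near their starts, and in fat they deal with lipid aldehydes and the peroxides of mitochondrial oxidation.

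Promoter sequence was looked at because several members moved together with diet or strain. The 250 bases before the annotated start were searched on both strands for TGACNNNGC, the core of the antioxidant response element, and for the related TGAGNNNGC, with N standing for any base. A match is a description of the letters and not a binding site, and the forms differ at the fourth letter, so 1 place cannot match both on the same strand. RefSeq promoters of the build GRCm38.p6 were held for 33 of the 40 members, in 45 windows. Either form was present in 14 of the 45 windows, or 31.1%, against 23% of the 32851 promoter windows of all genes. In those TGACNNNGC occurred in 10.2% and TGAGNNNGC in 14.4%. By gene, either form was present in 13 of the 33, which is 39.4% of them. A gene with more than 1 window has more places to match, so the share by gene is not comparable with the 23%. The stretches below belong to some of the members that differed with diet or strain. Matches of Txn2, Gclm and Gstt1, which also differed, and another match of Gstm5 are not printed. Each shows 1 match in capitals with 20 bases on both sides, read 5′ to 3′ on the strand of the gene. A match on the opposite strand is printed as its reverse complement.
Srxn1, chr2:152105346-152105394, plus strand: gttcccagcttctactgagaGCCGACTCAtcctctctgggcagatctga
Srxn1, chr2:152105459-152105507, plus strand: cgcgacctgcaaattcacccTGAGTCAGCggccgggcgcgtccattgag
Txnrd1, chr10:82859094-82859142, plus strand: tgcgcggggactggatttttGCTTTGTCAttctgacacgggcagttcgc
Gsta3, chr1:21240444-21240492, plus strand: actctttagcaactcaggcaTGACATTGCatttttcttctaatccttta
Mgst1, chr6:138140451-138140499, plus strand: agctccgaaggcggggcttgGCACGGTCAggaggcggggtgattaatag
Sod1, chr16:90220686-90220734, plus strand: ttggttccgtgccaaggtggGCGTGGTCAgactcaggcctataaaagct
Prdx1, chr4:116685446-116685494, plus strand: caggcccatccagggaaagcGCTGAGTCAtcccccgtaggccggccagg
Gstm5, chr3:107895792-107895840, plus strand: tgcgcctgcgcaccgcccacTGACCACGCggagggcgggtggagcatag
Gstm7, chr3:107931715-107931763, minus strand: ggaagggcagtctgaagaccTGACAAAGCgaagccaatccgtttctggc
Srxn1 and Txnrd1 were the members called higher on the high-fat diet averaged over strains. Gsta3, Mgst1, Sod1, Gstm5 and Txn2 were called lower in that average and Prdx1 was called lower in WSB/EiJ, so members with a match stood on both sides.

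The libraries were not equal in the cells they held, and that has to be known before the values are read. Summed over 8 adipocyte markers, 23 libraries reached 10220 to 30340 CPM, which are read counts scaled to a common library total, whereas replicate 1 of CAST/EiJ on the high-fat diet reached 230.8 CPM. That library also had the highest sums for 8 epithelial markers, 6 smooth muscle markers and 6 reproductive tract markers, at 1334, 11190 and 3038 CPM. For WSB/EiJ the adipocyte sum was 10220 to 14790 CPM in high-fat mice, against 21630 to 26110 CPM in standard mice. The epithelial sum there was 302 to 1106 CPM in high-fat mice, against 28.8 to 64.6 CPM in standard mice, and the smooth muscle sum 1127 to 5288 CPM, against 95.7 to 778 CPM. Within the WSB/EiJ high-fat mice replicate 3 held 919.9 CPM of 4 urothelial markers and replicate 2 held 3182 CPM of 6 brain markers. Replicates 1 and 2 there held 699.5 and 799.3 CPM of the reproductive tract markers. In CAST/EiJ standard replicate 2 the skeletal muscle markers summed to 3537 CPM and the liver markers to 672.7 CPM. In NZO/HiLtJ the adipocyte sum was 12500 to 15420 CPM on the high-fat diet and 20380 to 20550 CPM on the standard diet, and the sum of 8 macrophage markers was 2392 to 3202 CPM, against 777 to 1177 CPM. In C57BL/6J the adipocyte sum was 11910 to 21480 CPM in high-fat mice and 17310 to 21030 CPM in standard mice, which overlap. High-fat replicate 1 of that strain held 181.6 CPM of the reproductive tract markers. Totals ran from 47651641 to 84009032 counts a library. The part of these cell markers in the results below was not tested.

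**Figure D1:**
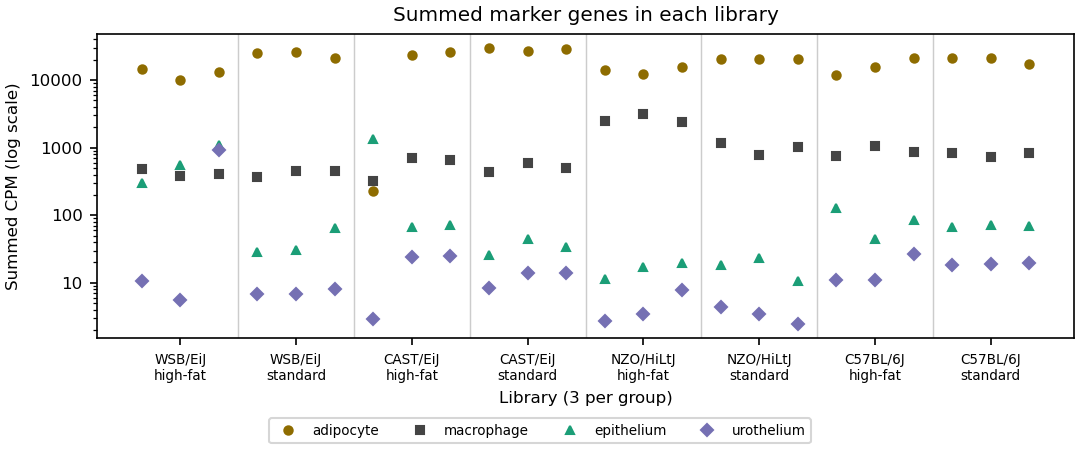
Summed CPM (log scale) of adipocyte, macrophage, epithelial and urothelial markers in each of the 24 libraries, 3 a group. The adipocyte sum of CAST/EiJ high-fat replicate 1 is 230.8 CPM, far below all others, and the macrophage sums of the 3 NZO/HiLtJ high-fat libraries, 2392 to 3202 CPM, lie above all others.

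The enzymes differed widely in level. On the scale of CPM per kilobase of annotated exon, the median over libraries was highest for Mgst1, a membrane transferase of the endoplasmic reticulum and mitochondria, at 654 CPM per kilobase. Gpx4, which reduces lipid peroxides within membranes, followed at 393, Cat, the peroxisomal catalase, at 219.6, Gstm1 at 181, Prdx1 at 171 and the secreted peroxidase Gpx3 at 147 CPM per kilobase. At the other end Nqo1, a quinone reductase, had 1.47 CPM per kilobase, Gstt2 had 2.89, Gstm6 had 3.47, Gclc had 3.63 and Gstt3 had 3.91. Some reads cannot be assigned with certainty, since 34.7% of the 50-base words of Gpx4 also occur in another annotated gene, mostly a Gpx4 pseudogene, and 33.7% of those of Gstp1 occur mostly in its neighbour Gstp2. For Sod2, Gstm1, Prdx5, Gstt3, Prdx2 and Gss the shared portion was 21%, 18.9%, 15.5%, 12.5%, 12% and 10.3%, and it was under 1% for 24 members. Over the 24 libraries the normalised CPM of the members described below without a value per mouse ran from 5.74 to 17.6 for Gstt2, 97.2 to 177 for Gclm and 27.3 to 89.6 for Gsr. Mgst3 ran from 10.7 to 68.4, Txn2 from 67.2 to 291, Prdx2 from 265 to 443 and Prdx4 from 18.6 to 35.5 CPM. Prdx6 ran from 117 to 602, Sod1 from 28.8 to 308 and Sod2 from 18.3 to 118 CPM.

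Most members differed between strains. Of the 40 members, 31 differed between strains when both diets were weighted equally (edgeR quasi-likelihood F test, adjusted p below 0.05), where 68.2% of all tested genes did. The smallest adjusted p values were those of Gstm2 (1.34e-07), Hmox1 (9.165e-06), Gstm6 (1.13e-05) and Gsto1 (1.24e-05). Below, fold changes are log2 values ± standard error with the first-named strain or the high-fat diet on top, levels are CPM after trimmed-mean scaling, and adjusted p values are Benjamini-Hochberg values over all genes tested. In each pair the shares of all genes called set the background. NZO/HiLtJ against C57BL/6J had 6 members higher and 8 lower, where 11.9% and 11.5% of all genes were called. CAST/EiJ against C57BL/6J had 11 higher and 3 lower, against 18.7% and 20.2% of all genes, and WSB/EiJ against C57BL/6J had 10 higher and 7 lower, against 13.2% and 16.4%. NZO/HiLtJ had 6 members higher and 17 lower than CAST/EiJ, where 25.1% and 26.1% of all genes were called, and 7 higher and 16 lower than WSB/EiJ, where 21.7% and 23.9% were. CAST/EiJ had 8 members higher and 3 lower than WSB/EiJ, against 17.3% and 18.1% of all genes. Without CAST/EiJ high-fat replicate 1 these counts were 19 higher and 5 lower for CAST/EiJ against C57BL/6J, where 22.8% and 25.9% of all genes were called, and 19 higher and 4 lower for CAST/EiJ against WSB/EiJ, where 22.3% and 27.3% were. For CAST/EiJ against WSB/EiJ, leaving out certain single libraries gave 6 or 7 called members in place of 11, with 3 or 4 in each direction. These were WSB/EiJ high-fat replicate 2, WSB/EiJ standard replicate 2 or 3, CAST/EiJ high-fat replicate 3 and CAST/EiJ standard replicate 3. The members called there were not all among the 11, and the shares of all genes called are not given here. Some calls below, made over both diets, did not pass within 1 diet alone, where each strain has 3 mice.

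The mu class transferases act on lipid aldehydes and epoxides and sit side by side on chromosome 3. Of the 5 members of the class, Gstm6, Gstm2, Gstm5 and Gstm1 were lower in NZO/HiLtJ than in C57BL/6J and Gstm7 was not. Their neighbours Gstm3 and Gstm4, which are no members, were not called between NZO/HiLtJ and C57BL/6J (adjusted p = 1 and 0.837). Gstm6 lay at 0.355, 0.255 and 0.448 CPM in NZO/HiLtJ high-fat mice and 1.39, 1.08 and 0.484 CPM in NZO/HiLtJ standard mice, against 13.3, 17.5 and 11.3 CPM and 18.3, 13.3 and 18.6 CPM in C57BL/6J. Every NZO/HiLtJ mouse was below every C57BL/6J mouse, and the difference was -4.70 ± 0.59 (adjusted p = 1.275e-05). It was also lower in NZO/HiLtJ than in CAST/EiJ, at -4.49 ± 0.58 (adjusted p = 4.36e-06) and than in WSB/EiJ, at -3.18 ± 0.55 (adjusted p = 0.000158). WSB/EiJ lay between, at 4.91, 2.42 and 6.43 CPM in its high-fat and 6.75, 4.96 and 7.05 CPM in its standard mice, which was below C57BL/6J, at -1.52 ± 0.51 (adjusted p = 0.0312). In CAST/EiJ the values were 0.391, 10.8 and 20.1 CPM on the high-fat diet, the first of them from the library with few adipocyte transcripts, and 17.1, 16.7 and 17.1 CPM on the standard diet. Gstm6 had the widest span of all members, with group means 48 times apart between CAST/EiJ standard and NZO/HiLtJ high-fat mice.

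Gstm2 had the smallest adjusted p among the members for a difference between strains. Its values were 30.3, 27.7 and 39 CPM in NZO/HiLtJ high-fat mice and 46.8, 55.5 and 55.6 CPM in NZO/HiLtJ standard mice, against 139.5, 184 and 162 CPM and 146, 139.8 and 145 CPM in C57BL/6J. All 6 NZO/HiLtJ mice lay below the mice of each other strain, at -1.89 ± 0.17 (adjusted p = 2.94e-07) against C57BL/6J, at -1.81 ± 0.17 (adjusted p = 7.64e-08) against CAST/EiJ and at -1.21 ± 0.17 (adjusted p = 1.535e-05) against WSB/EiJ. WSB/EiJ was itself below C57BL/6J, at -0.68 ± 0.17 (adjusted p = 0.00498), and CAST/EiJ was above WSB/EiJ, by 0.60 ± 0.17 (adjusted p = 0.00849). Gstm5 was lower in NZO/HiLtJ than in C57BL/6J, at -1.23 ± 0.18 (adjusted p = 8.78e-05), than in CAST/EiJ, at -0.92 ± 0.18 (adjusted p = 0.000396) and than in WSB/EiJ, at -0.93 ± 0.18 (adjusted p = 0.000495). Its group means were 35.5 ± 8.47 CPM on the high-fat and 57.1 ± 4.26 CPM on the standard diet in NZO/HiLtJ (SD, n = 3 each). Gstm1 had 64.3, 71.5 and 78.2 CPM in NZO/HiLtJ high-fat mice and 92.6, 121 and 127 CPM in NZO/HiLtJ standard mice, against 297, 355 and 321 CPM and 428, 331 and 457 CPM in C57BL/6J. These groups did not overlap, with a difference of -2.01 ± 0.52 (adjusted p = 0.00878), and Gstm1 was also below CAST/EiJ, at -1.44 ± 0.51 (adjusted p = 0.025) and below WSB/EiJ, at -2.52 ± 0.53 (adjusted p = 0.000896). Without WSB/EiJ high-fat replicate 3, in which Gstm1 was at 2434 CPM, the difference from WSB/EiJ was -1.19 ± 0.23 (adjusted p = 0.000446).

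Gstm7, annotated between Gstm5 and Gstm6, did not follow its neighbours. It was lowest on average in C57BL/6J, with 8.35, 7.39 and 12.4 CPM in NZO/HiLtJ high-fat and 20.3, 22.1 and 22.1 CPM in NZO/HiLtJ standard mice, against 7.59, 7.43 and 7.37 CPM and 5.86, 4.96 and 6.26 CPM in C57BL/6J. The NZO/HiLtJ and C57BL/6J mice overlapped on the high-fat diet and stood apart on the standard diet, and the difference over both diets was 1.12 ± 0.30 (adjusted p = 0.011). CAST/EiJ exceeded C57BL/6J by 1.45 ± 0.30 (adjusted p = 0.000917) and WSB/EiJ by 0.85 ± 0.30 (adjusted p = 0.039). Shared sequence was small for Gstm7, at 0.532% of its words, and larger for Gstm1, Gstm5, Gstm6 and Gstm2, at 18.9%, 9.44%, 5.97% and 5.66%.

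**Figure D2:**
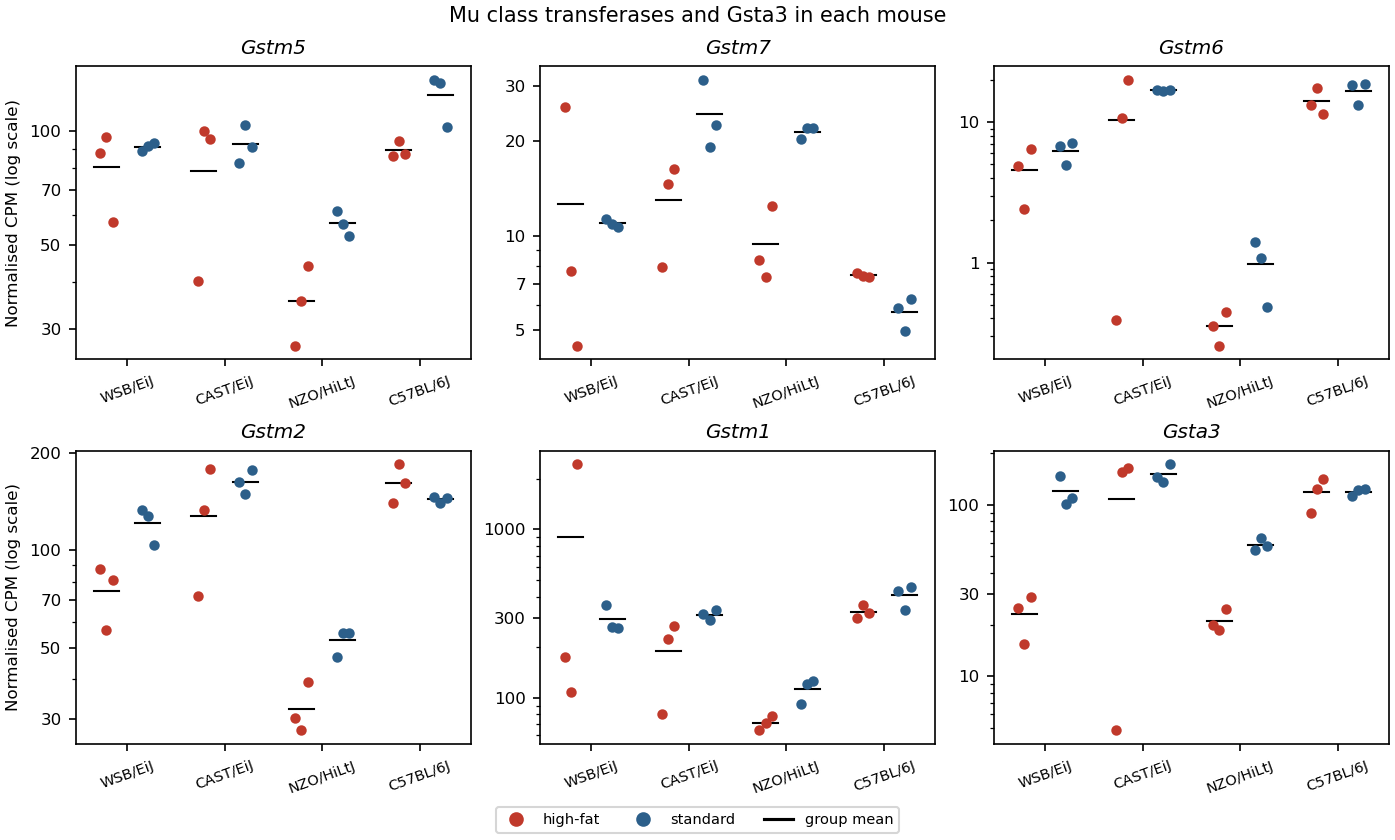
Normalised CPM (log scale) of 5 mu class transferases in their chromosomal order and of Gsta3 in each mouse, by strain, with high-fat mice in red left of standard mice in blue and a bar at each group mean. Averaged over its 6 mice NZO/HiLtJ is lowest for Gstm5, Gstm6, Gstm2 and Gstm1 and C57BL/6J is lowest for Gstm7, and Gsta3 is low in WSB/EiJ high-fat and in all NZO/HiLtJ mice.

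Among the other cytosolic transferases the strain that stood apart differed from gene to gene. Gsta3, an alpha class enzyme that conjugates lipid aldehydes, had 19.98, 18.6 and 24.6 CPM in NZO/HiLtJ high-fat and 54.1, 63.6 and 57.4 CPM in NZO/HiLtJ standard mice, against 89.3, 123 and 142 CPM and 112, 122 and 123 CPM in C57BL/6J. No NZO/HiLtJ mouse reached a C57BL/6J mouse, and the difference was -1.75 ± 0.46 (adjusted p = 0.00933). NZO/HiLtJ was below CAST/EiJ, at -1.86 ± 0.46 (adjusted p = 0.00245). CAST/EiJ was above WSB/EiJ by 1.28 ± 0.45 (adjusted p = 0.0334), and by 1.56 ± 0.15 (adjusted p = 1.96e-07) without CAST/EiJ high-fat replicate 1. That call was lost in 9 of 31 alternative settings, among them the standard-diet groups alone. Mean Gsta3 was 151 CPM in CAST/EiJ and 119 CPM in WSB/EiJ standard mice, and 108 CPM and 23.1 CPM in their high-fat mice. Gsta4, whose main substrate is 4-hydroxynonenal, went the other way in WSB/EiJ, with 31.9, 23.6 and 129.9 CPM in high-fat and 49.2, 46.4 and 37.9 CPM in standard mice, against 12, 10.8 and 17 CPM and 14.7, 13.1 and 13.3 CPM in C57BL/6J. WSB/EiJ stood above C57BL/6J throughout, by 1.96 ± 0.42 (adjusted p = 0.00177), and CAST/EiJ was below WSB/EiJ, at -1.98 ± 0.42 (adjusted p = 0.00108).

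Gsto1, an omega class enzyme with thiol transferase and dehydroascorbate reductase activity, had 284, 87.1 and 88.5 CPM in CAST/EiJ high-fat and 129, 86.3 and 105 CPM in CAST/EiJ standard mice, against 58.3, 26.6 and 22.1 CPM and 24.1, 21.6 and 33.1 CPM in C57BL/6J. CAST/EiJ was above C57BL/6J in all mice, by 2.06 ± 0.29 (adjusted p = 1.47e-05), and by 1.67 ± 0.21 (adjusted p = 4.86e-06) without the high-fat library that carried 283.6 CPM. WSB/EiJ exceeded C57BL/6J by 1.01 ± 0.28 (adjusted p = 0.0109), CAST/EiJ exceeded WSB/EiJ by 1.05 ± 0.28 (adjusted p = 0.00661), or by 0.65 ± 0.21 (adjusted p = 0.0177) without that library, and NZO/HiLtJ was below CAST/EiJ, at -1.77 ± 0.28 (adjusted p = 4.88e-05). The theta class genes, which handle small halogenated compounds and peroxides, split by strain. Gstt1 was lower in WSB/EiJ than in C57BL/6J, at -1.06 ± 0.31 (adjusted p = 0.0144). Its group means were 17.8 ± 4.55 CPM in high-fat and 30.6 ± 5.36 CPM in standard WSB/EiJ mice and 47.1 ± 12.8 CPM and 50.5 ± 4.21 CPM in C57BL/6J. Gstt2 was lower in NZO/HiLtJ than in C57BL/6J, at -0.67 ± 0.16 (adjusted p = 0.00557), than in CAST/EiJ, at -1.11 ± 0.16 (adjusted p = 1.77e-05) and than in WSB/EiJ, at -0.89 ± 0.16 (adjusted p = 0.000236). It was higher in CAST/EiJ than in C57BL/6J by 0.44 ± 0.16 (adjusted p = 0.0355). Gstt3 was higher than in C57BL/6J by 0.89 ± 0.27 (adjusted p = 0.0147) in CAST/EiJ and by 0.94 ± 0.27 (adjusted p = 0.0144) in WSB/EiJ, and NZO/HiLtJ was below WSB/EiJ, at -1.41 ± 0.27 (adjusted p = 0.000476). Without WSB/EiJ high-fat replicate 3, at 55.8 CPM of Gstt3, the difference of WSB/EiJ from C57BL/6J was 0.44 ± 0.15 (adjusted p = 0.0315) and that of NZO/HiLtJ from WSB/EiJ was -0.90 ± 0.15 (adjusted p = 0.000113). The pi class Gstp1 and the zeta class Gstz1, which also degrades tyrosine, did not pass the test of any strain difference (adjusted p = 0.166 and 0.869), with library values from 32.1 to 114.9 CPM for Gstp1 and from 12 to 446 CPM for Gstz1.

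Of the 4 mitochondrial or membrane-bound transferases, Mgst1 and Mgst2 differed between strains while Gstk1 and Mgst3 did not pass (adjusted p = 0.737 and 0.393). Mgst2, which can also make leukotriene C4, had 2.29, 89.7 and 97.4 CPM in CAST/EiJ high-fat and 117, 72.4 and 97.5 CPM in CAST/EiJ standard mice, against 11.5, 14.3 and 33.4 CPM and 15.9, 19.3 and 14.2 CPM in C57BL/6J. All CAST/EiJ mice but the library short of adipocyte transcripts lay above all C57BL/6J mice, the difference was 2.11 ± 0.54 (adjusted p = 0.00444), and it was 2.40 ± 0.30 (adjusted p = 4.07e-06) without that library. NZO/HiLtJ, at 16.1, 12.2 and 14.4 CPM in high-fat and 25.7, 19.3 and 27.7 CPM in standard mice, was below CAST/EiJ, at -2.06 ± 0.54 (adjusted p = 0.00365). Mgst1 was higher in CAST/EiJ than in WSB/EiJ by 1.04 ± 0.39 (adjusted p = 0.0427), with group means of 3316 ± 846 CPM in CAST/EiJ standard and 2050 ± 245 CPM in WSB/EiJ standard mice (SD, n = 3 each). That call held in 7 of 31 alternative settings, and leaving out single libraries ended it 20 times.

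Of the 4 genes that make or recycle glutathione, 3 differed between strains. Gclc and Gclm, the catalytic and modifier subunits of the ligase that limits glutathione synthesis, were higher in CAST/EiJ than in C57BL/6J by 0.63 ± 0.15 (adjusted p = 0.00243) and by 0.33 ± 0.10 (adjusted p = 0.015). Gclc was also higher in WSB/EiJ than in C57BL/6J by 0.50 ± 0.15 (adjusted p = 0.0164), or by 0.30 ± 0.10 (adjusted p = 0.0367) without WSB/EiJ high-fat replicate 3, and lower in NZO/HiLtJ than in CAST/EiJ, at -0.81 ± 0.15 (adjusted p = 0.000178), while its group means spanned only 10.6 to 20.4 CPM. Gss, the second enzyme of the pathway, was higher in NZO/HiLtJ than in C57BL/6J by 0.30 ± 0.09 (adjusted p = 0.0184), than in CAST/EiJ by 0.25 ± 0.09 (adjusted p = 0.0272) and than in WSB/EiJ by 0.50 ± 0.09 (adjusted p = 0.000208). CAST/EiJ was above WSB/EiJ by 0.25 ± 0.09 (adjusted p = 0.0343), which did not pass without CAST/EiJ high-fat replicate 1 (adjusted p = 0.0671). Gsr, the reductase that regenerates glutathione, was higher in WSB/EiJ than in C57BL/6J by 0.58 ± 0.20 (adjusted p = 0.0315) with no overlap between mice, although its test of any strain difference did not pass (adjusted p = 0.0645).

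Of the 3 glutathione peroxidases Gpx1 and Gpx3 differed between strains, and both were lower in CAST/EiJ than in C57BL/6J. Gpx1, the cytosolic and mitochondrial enzyme, had 112, 109 and 80.2 CPM in WSB/EiJ high-fat and 109.9, 106 and 84.1 CPM in WSB/EiJ standard mice, against 125, 159 and 215 CPM and 257, 206 and 183 CPM in C57BL/6J. These did not overlap, with a difference of -0.92 ± 0.21 (adjusted p = 0.00304). CAST/EiJ was below C57BL/6J, at -0.83 ± 0.21 (adjusted p = 0.00418), and at -1.14 ± 0.14 (adjusted p = 2e-06) without CAST/EiJ high-fat replicate 1. Gpx3 had 55.2, 278 and 149.7 CPM in CAST/EiJ high-fat and 242, 184 and 158 CPM in CAST/EiJ standard mice. NZO/HiLtJ had 146, 158 and 148 CPM and 159, 361 and 201 CPM on the 2 diets, against 487, 226 and 1044 CPM and 971, 898 and 444 CPM in C57BL/6J. C57BL/6J mice ranged widely, from 226 to 1044 CPM, and overlapped both strains, and the differences were -1.92 ± 0.38 (adjusted p = 0.000522) for CAST/EiJ and -1.82 ± 0.38 (adjusted p = 0.00176) for NZO/HiLtJ. CAST/EiJ was also below WSB/EiJ, at -1.50 ± 0.37 (adjusted p = 0.00405). Gpx4 did not pass (adjusted p = 0.843).

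In the thioredoxin system, C57BL/6J had the lowest sulfiredoxin and thioredoxin reductase. Srxn1, which repairs over-oxidised peroxiredoxins, had 42, 56.1 and 52.4 CPM in CAST/EiJ high-fat and 42.9, 37.1 and 45.5 CPM in CAST/EiJ standard mice, against 29.98, 33.6 and 28 CPM and 29.3, 30.6 and 31.1 CPM in C57BL/6J. No C57BL/6J mouse reached any mouse of another strain, and the differences were 0.59 ± 0.10 (adjusted p = 8.05e-05) for CAST/EiJ, 0.48 ± 0.10 (adjusted p = 0.00134) for NZO/HiLtJ and 0.42 ± 0.10 (adjusted p = 0.00331) for WSB/EiJ. Txnrd1, the cytosolic thioredoxin reductase, was higher than in C57BL/6J by 0.49 ± 0.09 (adjusted p = 0.000637) in NZO/HiLtJ, by 0.28 ± 0.09 (adjusted p = 0.0201) in CAST/EiJ and by 0.30 ± 0.09 (adjusted p = 0.0185) in WSB/EiJ. Txn2, the mitochondrial thioredoxin, was lower in NZO/HiLtJ than in CAST/EiJ, at -0.69 ± 0.20 (adjusted p = 0.00746) and than in WSB/EiJ, at -0.61 ± 0.20 (adjusted p = 0.0176). The cytosolic Txn1 did not pass (adjusted p = 0.883), with group means between 37.5 and 44.5 CPM.

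All 6 peroxiredoxins differed between strains, in different directions. Prdx3, the mitochondrial enzyme, had 26.7, 25.2 and 28.7 CPM in NZO/HiLtJ high-fat and 36.4, 40.03 and 37.7 CPM in NZO/HiLtJ standard mice, against 58.7, 42.4 and 69.6 CPM and 122, 119 and 99.3 CPM in WSB/EiJ. These did not overlap, at -1.33 ± 0.22 (adjusted p = 0.000121), and NZO/HiLtJ was also below C57BL/6J, at -0.86 ± 0.22 (adjusted p = 0.0087). Prdx5, found in mitochondria, peroxisomes and cytosol, and Prdx4, of the endoplasmic reticulum, were instead higher in NZO/HiLtJ than in CAST/EiJ and WSB/EiJ. Prdx5 was above CAST/EiJ by 1.06 ± 0.16 (adjusted p = 2.6e-05) and above WSB/EiJ by 0.69 ± 0.16 (adjusted p = 0.00181). Its group means in NZO/HiLtJ were 280.2 ± 2.76 CPM on the high-fat and 362 ± 16.5 CPM on the standard diet (SD, n = 3 each). It was below C57BL/6J, at -0.85 ± 0.16 (adjusted p = 0.000322) in CAST/EiJ and at -0.49 ± 0.16 (adjusted p = 0.0261) in WSB/EiJ. NZO/HiLtJ and C57BL/6J were not called apart for Prdx5, with C57BL/6J means of 265.6 CPM on the high-fat and 288.7 CPM on the standard diet. Prdx4 was above C57BL/6J by 0.48 ± 0.09 (adjusted p = 0.00112), above CAST/EiJ by 0.48 ± 0.09 (adjusted p = 0.000367) and above WSB/EiJ by 0.52 ± 0.09 (adjusted p = 0.000269). Prdx6, which also has phospholipase activity, was higher in NZO/HiLtJ than in CAST/EiJ by 0.60 ± 0.22 (adjusted p = 0.0314) and than in WSB/EiJ by 0.81 ± 0.22 (adjusted p = 0.00668). The cytosolic Prdx2 was higher than in C57BL/6J by 0.30 ± 0.07 (adjusted p = 0.00314) in WSB/EiJ and by 0.24 ± 0.07 (adjusted p = 0.0112) in CAST/EiJ, and Prdx1 by 0.43 ± 0.14 (adjusted p = 0.0238) in CAST/EiJ.

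Sod3 and Hmox1 were high in NZO/HiLtJ and low in WSB/EiJ. Sod3, the extracellular superoxide dismutase, had 244, 212 and 224 CPM in NZO/HiLtJ high-fat and 264, 292 and 284 CPM in NZO/HiLtJ standard mice, against 37, 24.5 and 40.7 CPM and 56.8, 55.7 and 38.8 CPM in WSB/EiJ. The strains did not overlap, with a difference of 2.60 ± 0.58 (adjusted p = 0.00137). C57BL/6J had 148, 236 and 130.3 CPM in high-fat and 222, 146 and 235 CPM in standard mice, and WSB/EiJ was below it, at -2.16 ± 0.57 (adjusted p = 0.00785). NZO/HiLtJ was above CAST/EiJ by 1.50 ± 0.55 (adjusted p = 0.0305) and was not called apart from C57BL/6J. Hmox1, the heme-degrading enzyme that macrophages express strongly, had 62.6, 68 and 45.9 CPM in NZO/HiLtJ high-fat and 45.5, 33.4 and 57 CPM in NZO/HiLtJ standard mice, against 11.1, 13 and 15.5 CPM and 18.5, 18.3 and 15.6 CPM in WSB/EiJ. NZO/HiLtJ lay above WSB/EiJ in every mouse, by 1.77 ± 0.22 (adjusted p = 3.93e-06), above C57BL/6J by 1.09 ± 0.21 (adjusted p = 0.00105) and above CAST/EiJ by 0.88 ± 0.21 (adjusted p = 0.00202). WSB/EiJ was below C57BL/6J, at -0.68 ± 0.21 (adjusted p = 0.0221) and CAST/EiJ above WSB/EiJ by 0.89 ± 0.21 (adjusted p = 0.00296). The macrophage markers ran in the same order at the ends, with sums of 777 to 3202 CPM in NZO/HiLtJ and 364 to 482 CPM in WSB/EiJ. Of the 8 markers 5 were called higher in NZO/HiLtJ and 7 lower in WSB/EiJ, each against C57BL/6J, and their part in the Hmox1 result was not tested. Sod1, the cytosolic dismutase, was lower in NZO/HiLtJ than in CAST/EiJ, at -1.14 ± 0.32 (adjusted p = 0.00604) and than in WSB/EiJ, at -1.04 ± 0.32 (adjusted p = 0.0127), and Sod2 and Cat did not pass (adjusted p = 0.488 and 0.109). Cat in CAST/EiJ standard mice was at 1343, 1116 and 1070 CPM, above every mouse of the other 3 strains. Cat was at 21.7 CPM in CAST/EiJ high-fat replicate 1, and without that library it was called higher in CAST/EiJ than in C57BL/6J. Nqo1, the 2-electron quinone reductase, was higher in WSB/EiJ than in C57BL/6J by 1.47 ± 0.28 (adjusted p = 0.000715). It had 4.43, 4.76 and 20.8 CPM in WSB/EiJ high-fat and 3.45, 3.03 and 3.48 CPM in WSB/EiJ standard mice, against 1.5, 2.15 and 1.63 CPM and 2.58, 2.45 and 2.35 CPM in C57BL/6J. WSB/EiJ lay above C57BL/6J in every mouse, CAST/EiJ was below WSB/EiJ, at -1.62 ± 0.28 (adjusted p = 0.00017) and NZO/HiLtJ, at -1.42 ± 0.28 (adjusted p = 0.0005), and the high WSB/EiJ value of 20.8 CPM belongs to the library with urothelial markers. Without that library Nqo1 in WSB/EiJ differed from C57BL/6J by 0.92 ± 0.12 (adjusted p = 2.24e-05), CAST/EiJ from WSB/EiJ, at -1.06 ± 0.12 (adjusted p = 1.65e-06) and NZO/HiLtJ from WSB/EiJ, at -0.86 ± 0.12 (adjusted p = 2.04e-05).

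**Figure D3:**
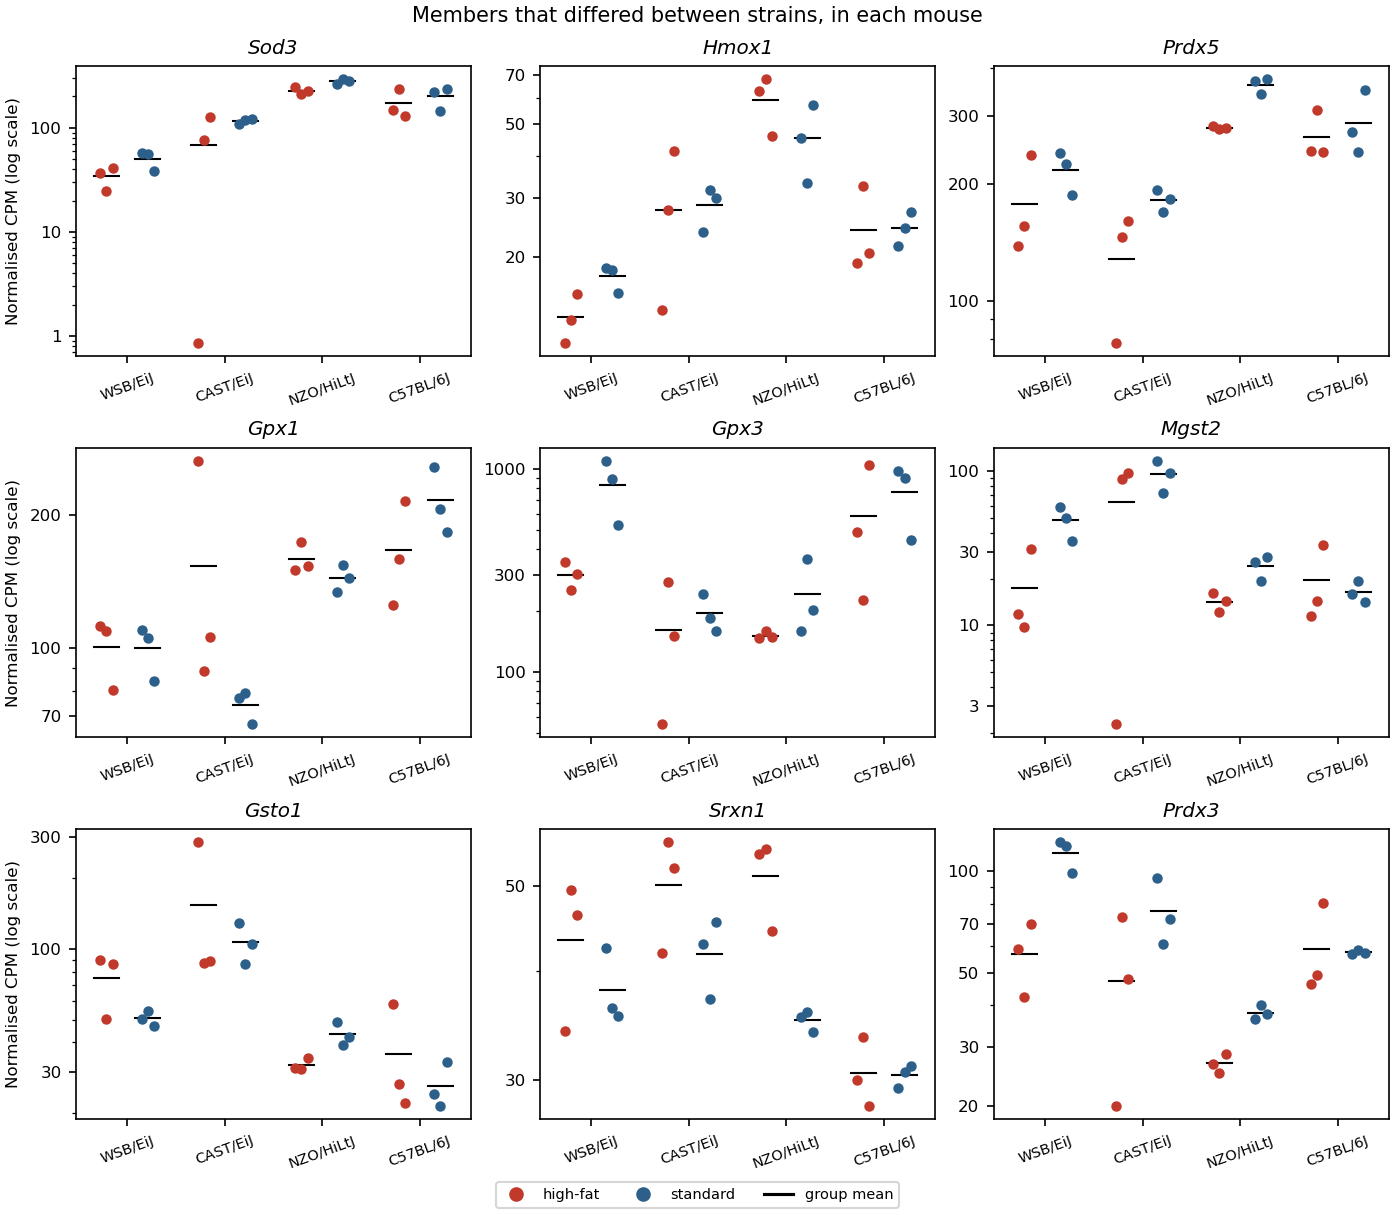
Normalised CPM (log scale) of 9 members in each mouse, by strain, with high-fat mice in red left of standard mice in blue and a bar at each group mean. Sod3 is low in all WSB/EiJ mice and at 0.862 CPM in 1 CAST/EiJ high-fat library, Hmox1 is highest on average in NZO/HiLtJ, and every C57BL/6J mouse is below every other mouse for Srxn1 (28 to 33.6 CPM).

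On the high-fat diet 13 members fell and 2, both of the thioredoxin system, rose when averaged over the 4 strains. This compares with the background of all genes, where 11.8% of all genes were called lower and 17.1% higher (edgeR). The median log2 fold change of the 40 members was -0.34, against 0.05 over all genes, and 33 of the 40 were below 0. The 6 members that fell with the smallest adjusted p were Gpx4 at -0.59 ± 0.16 (adjusted p = 0.0174), Prdx3 at -0.54 ± 0.16 (adjusted p = 0.0202) and Gsta3 at -1.08 ± 0.32 (adjusted p = 0.0212), followed by Gstm2 at -0.39 ± 0.12 (adjusted p = 0.0218), Txn2 at -0.46 ± 0.14 (adjusted p = 0.0234) and Gstk1 at -0.75 ± 0.23 (adjusted p = 0.0267). By role these include the mitochondrial peroxiredoxin with its thioredoxin, the membrane lipid peroxidase and 3 transferases. The others that fell were Gstm5 (-0.40), Prdx5 (-0.32), Prdx2 (-0.14), Mgst1 (-0.74), Mgst3 (-0.54), Sod1 (-0.61) and Gpx3 (-0.70), with adjusted p from 0.0305 to 0.0496. Srxn1 rose by 0.25 ± 0.07 (adjusted p = 0.0149) and Txnrd1 by 0.20 ± 0.06 (adjusted p = 0.0276). Gstk1, the mitochondrial transferase, had 15.3, 9.39 and 15.5 CPM in WSB/EiJ high-fat and 28.1, 27.4 and 24 CPM in WSB/EiJ standard mice, and 11.1, 9.7 and 13 CPM in NZO/HiLtJ high-fat and 20.5, 22.4 and 21.9 CPM in NZO/HiLtJ standard mice, without overlap in either strain. None of the 4 glutathione synthesis and recycling genes passed. In 6 libraries the epithelial marker Epcam reached 5 CPM. They are all WSB/EiJ high-fat libraries, WSB/EiJ standard replicate 3, and high-fat replicate 1 of CAST/EiJ and of C57BL/6J. An average without them covers only CAST/EiJ, NZO/HiLtJ and C57BL/6J, so it is not the same average. It had 1 member higher and 9 lower, where 1268 and 1166 of 19748 genes were called. In it Gpx4 stood at -0.26 ± 0.08 (adjusted p = 0.0519), Prdx3 at -0.22 ± 0.12 (adjusted p = 0.252), Gstm2 at -0.17 ± 0.08 (adjusted p = 0.195) and Txn2 at -0.21 ± 0.07 (adjusted p = 0.0871), none of which passed. Prdx5, Prdx2, Mgst1, Mgst3, Sod1, Gpx3 and Txnrd1 did not pass either, with adjusted p of 0.0621, 0.165, 0.215, 0.0751, 0.128, 0.588 and 0.0722. Gsta3, at -0.41 ± 0.09 (adjusted p = 0.00734), Gstk1, at -0.48 ± 0.07 (adjusted p = 0.000867), Gstm5 and Srxn1 were still called, and the median of the members was -0.21, with 32 of 40 below 0. The Txnrd1 call was also lost without WSB/EiJ standard replicate 2 (adjusted p = 0.0539) or NZO/HiLtJ high-fat replicate 2 (adjusted p = 0.0547), and the Gstk1 call without C57BL/6J high-fat replicate 1 (adjusted p = 0.0507). Without CAST/EiJ high-fat replicate 1 the average had 2 members higher and 18 lower, where 13.9% and 15% of all genes were called. Leaving out 1 of 12 other libraries brought the count of 15 down to between 7 and 9. The shares of all genes called in those 12 fits are not given here, so these counts have no background.

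**Figure D4:**
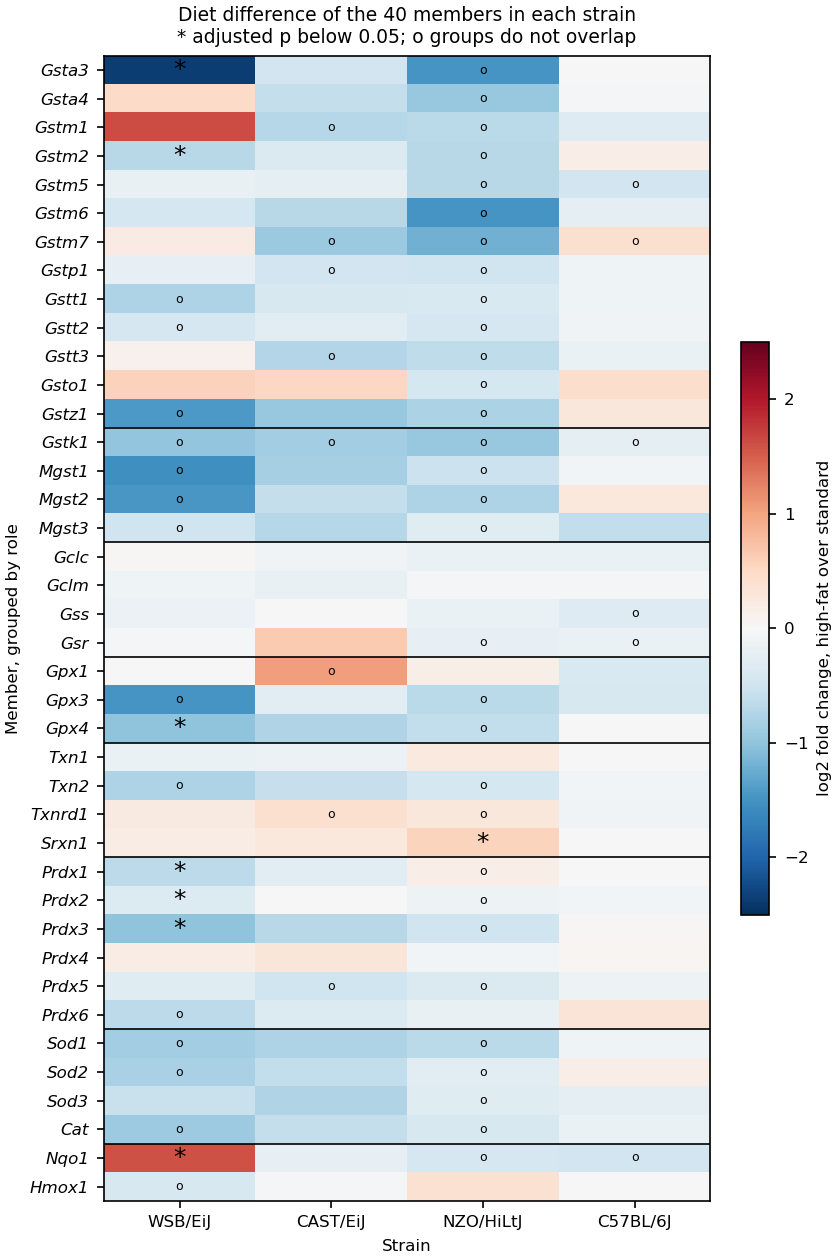
Log2 fold change, high-fat over standard, of each of the 40 members in each strain, with horizontal lines between roles. A star marks an adjusted p below 0.05 and a circle marks groups of 3 against 3 that do not overlap without passing; WSB/EiJ has 7 stars, NZO/HiLtJ 1, and CAST/EiJ and C57BL/6J have 0.

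In WSB/EiJ 6 members fell on the high-fat diet and 1 rose with all 24 libraries in 1 fit, where 8.61% of all genes were called lower and 12.9% higher, and for 21 of the 40 members the mice of the 2 diets did not overlap, against 39.97% of all genes. Gsta3 moved most, with 25.1, 15.3 and 28.8 CPM in WSB/EiJ high-fat mice, against 148, 101 and 109 CPM in WSB/EiJ standard mice. The highest high-fat mouse was far below the lowest standard mouse, and Gsta3 fell by 2.37 ± 0.66 (adjusted p = 0.0195). Gpx4 had 451, 336 and 593 CPM in high-fat and 1021, 979 and 766 CPM in standard mice, again without overlap, and fell by 1.00 ± 0.33 (adjusted p = 0.0392). Prdx3 fell by 1.00 ± 0.31 (adjusted p = 0.033) and Gstm2 fell by 0.70 ± 0.23 (adjusted p = 0.0422). Prdx1 fell by 0.65 ± 0.20 (adjusted p = 0.0313) and Prdx2 fell by 0.33 ± 0.10 (adjusted p = 0.0236). These 4 also had separate groups, for example Prdx1 with 521, 457 and 509.6 CPM in high-fat and 838, 792 and 706 CPM in standard mice. Members that stood apart without passing included Mgst1, with 782, 534 and 816 CPM in high-fat and 2138, 2239 and 1773 CPM in standard mice (-1.53 ± 0.55, adjusted p = 0.0552). Others were Gpx3 (-1.47 ± 0.53, adjusted p = 0.0534), Txn2 (-0.77 ± 0.28, adjusted p = 0.0586), Gstz1 (-1.43 ± 0.59, adjusted p = 0.0895) and Cat (-0.91 ± 0.68, adjusted p = 0.335). Without CAST/EiJ high-fat replicate 1, which shares the estimate of spread, 17 members were lower and 1 higher, where 17.9% and 21.8% of all genes were called, and Mgst1, Gpx3, Txn2, Gstz1 and Cat were among the 17. Leaving out WSB/EiJ high-fat replicate 2, the library with brain markers, gave 2 members higher and 0 lower, so none of the 6 falls was called. Leaving out standard replicate 1 left 0 members called, and leaving out standard replicate 2 left 1, which was lower. Shares of all genes called in these 3 fits are not given here, so the counts have no background. The median log2 fold change of the members in WSB/EiJ was -0.42, against 0.07 over all genes, and -0.69 without replicate 3 of the high-fat mice, with 32 of 40 below 0. With the 6 WSB/EiJ libraries fitted alone 0 members were called higher and 8 lower, where 575 genes were called higher and 913 lower. The epithelial, smooth muscle and adipocyte markers moved with this comparison as given above, and their part in it was not tested.

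Nqo1 was the 1 member that rose in WSB/EiJ, and the rise rested on 1 library. It had 4.43, 4.76 and 20.8 CPM in WSB/EiJ high-fat mice, against 3.45, 3.03 and 3.48 CPM in WSB/EiJ standard mice, and the difference was 1.59 ± 0.40 (adjusted p = 0.0126). All 3 high-fat mice were above all 3 standard mice, but without replicate 3, the library with 919.9 CPM of urothelial markers, the difference was 0.46 ± 0.17 (adjusted p = 0.0669). The same library held the highest Gstm1 (2434 CPM), Gsta4 (129.9 CPM) and Gstt3 (55.8 CPM) of all 24. The other WSB/EiJ high-fat libraries had 176 and 109 CPM of Gstm1, below the standard mice at 358, 266 and 259 CPM. With replicate 3 Gstm1 stood at 1.62 ± 0.73 (adjusted p = 0.113), and without it Gstm1 fell by 1.06 ± 0.35 (adjusted p = 0.0393) and Gstt3 fell by 0.92 ± 0.22 (adjusted p = 0.00912). Without that library 7 members were lower and 0 higher in WSB/EiJ, where 8.56% and 13.3% of all genes were called.

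**Figure D5:**
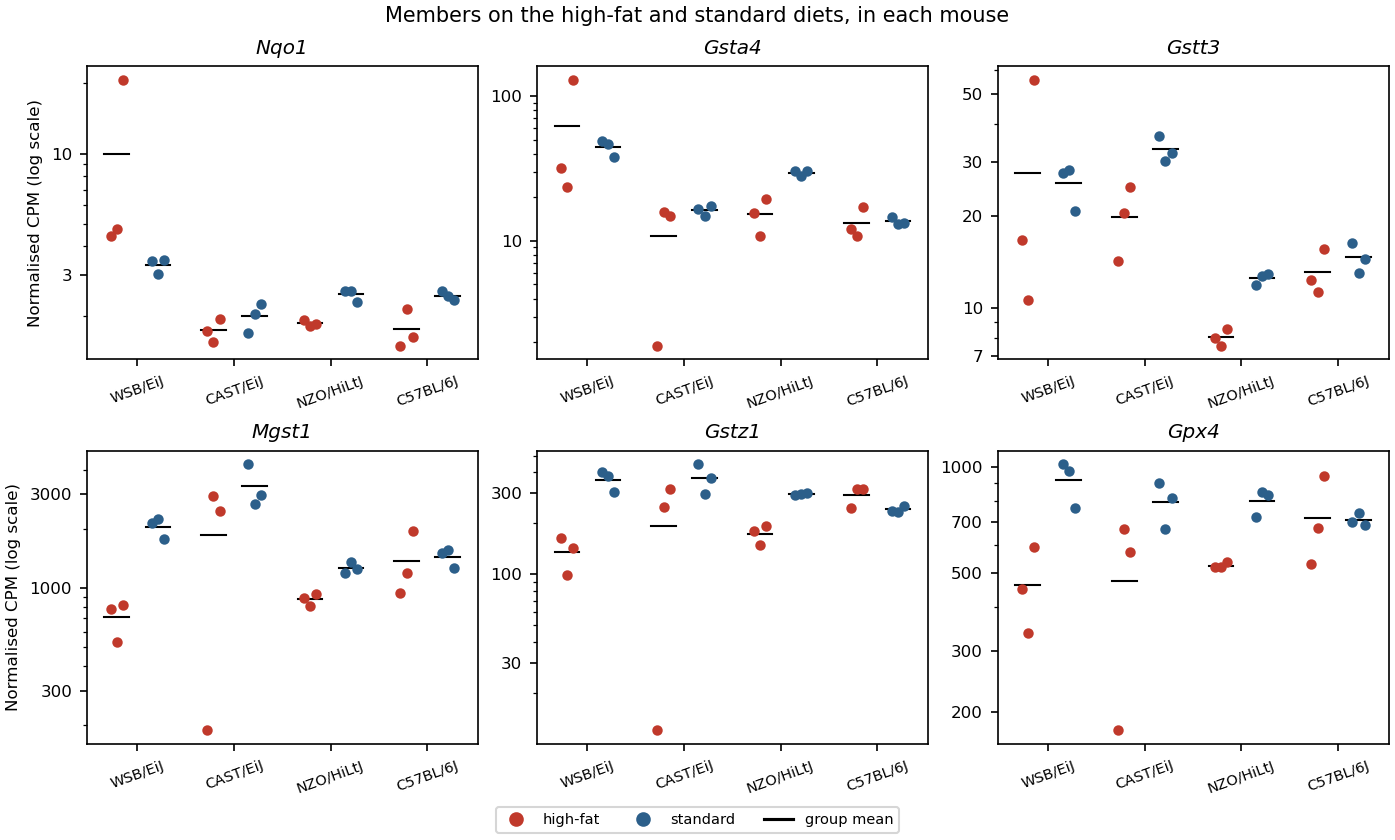
Normalised CPM (log scale) of 6 members in each mouse, by strain, with high-fat mice in red left of standard mice in blue and a bar at each group mean. The single high values of Nqo1 (20.8 CPM), Gsta4 (129.9 CPM) and Gstt3 (55.8 CPM) are 1 WSB/EiJ high-fat mouse, while Mgst1, Gstz1 and Gpx4 are lower in all 3 WSB/EiJ high-fat mice than in the standard mice.

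In NZO/HiLtJ the mice of the 2 diets stood apart for most members, while 1 passed the test. Srxn1 had 54.4, 55.1 and 44.4 CPM in NZO/HiLtJ high-fat mice, against 35.4, 35.9 and 34 CPM in NZO/HiLtJ standard mice. It rose by 0.55 ± 0.14 (adjusted p = 0.0251) with no overlap, and it was the 1 member called higher, where 2.95% of all genes were, while 0 were called lower, where 1.94% were. For 32 of the 40 members the 2 diets did not overlap, against 46.54% of all genes, and 34 of 40 were below 0, with a median log2 fold change of -0.41 against -0.0068 over all genes. Gsta3 had 19.98, 18.6 and 24.6 CPM in high-fat and 54.1, 63.6 and 57.4 CPM in standard mice, a difference of -1.47 ± 0.64 (adjusted p = 0.262). Gstm6 at -1.48 ± 0.76 (adjusted p = 0.374), Gstm7 at -1.20 ± 0.43 (adjusted p = 0.136), Gsta4 at -0.95 ± 0.57 (adjusted p = 0.476) and Gstk1 at -0.94 ± 0.47 (adjusted p = 0.354) were likewise lower in every high-fat mouse without passing. The NZO/HiLtJ mice of 1 diet were close to each other, and the counts differed with the libraries in the fit. With the 6 NZO/HiLtJ libraries fitted alone, 27 members were lower and 2 higher, where 16.5% and 16.1% of all genes were called. Without the 6 libraries with high Epcam named above, 18 were lower and 2 higher, against 10.1% and 10.8% of all genes. Without CAST/EiJ high-fat replicate 1 the counts were 6 lower, among them Gsta3, Gstk1 and Gstz1, and 1 higher, against 5.49% and 6.16%. Leaving out NZO/HiLtJ high-fat replicate 1 or 2 or any of the 3 standard libraries left 0, and leaving out WSB/EiJ high-fat replicate 1 or 3 gave 2. How many of all genes were called in these fits is not given here, so the counts have no background. Adipocyte marker sums were lower and macrophage sums higher in the high-fat mice, as given above. Liver markers, of which 7 of 8 were called lower, summed to 8.62 to 31.9 CPM in high-fat and 118.7 to 1212 CPM in standard mice. The part of these markers in the values was not tested.

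In CAST/EiJ 0 members passed in either direction with edgeR, where 3.27% of all genes were called higher and 1.6% lower. At an unadjusted p below 0.05 there were 8, all libraries included. The share of all genes below that p is not given here, so the 8 has no background. DESeq2 called 2 higher, Gpx1 and Txnrd1, where it called 1892 genes higher and 968 lower. Gpx1 had 264, 88.4 and 106 CPM in CAST/EiJ high-fat mice, against 77.2, 78.9 and 67.2 CPM in CAST/EiJ standard mice. Each high-fat mouse was above each standard mouse, but the highest value came from replicate 1, and the difference of 1.04 ± 0.30 (adjusted p = 0.0503) became 0.38 ± 0.20 (adjusted p = 0.423) without it. Txnrd1 had 171, 135 and 135 CPM in high-fat and 112, 108 and 117 CPM in standard mice, without overlap, at 0.39 ± 0.13 (adjusted p = 0.0682). That library stood at the extreme for many members. In it Gsta3 was at 4.82 CPM, Sod3 at 0.862 CPM, Cat at 21.7 CPM, Mgst2 at 2.29 CPM and Gstz1 at 12 CPM, each the lowest of all 24 libraries. Gsto1 at 283.6 CPM, Gsr at 89.6 CPM and Gpx1 were the highest. The other CAST/EiJ high-fat mice had 155.5 and 164 CPM of Gsta3, within the range of the standard mice at 145, 136 and 172 CPM. Without replicate 1 again 0 members passed, where 0.201% of all genes were called higher and 0.103% lower, and the median of the members was -0.12 in place of -0.45. Leaving out replicate 2 of that group gave 8 members, 4 higher and 4 lower, and leaving out replicate 3 gave 7, 3 higher and 4 lower. Leaving out WSB/EiJ high-fat replicate 2 or 3 gave 2. The shares of all genes called in these fits are not given here, so the counts have no background beside them.

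In C57BL/6J no member passed the test of a diet difference. edgeR called 0 members, where 0.00998% of all genes, which is 2 genes, were called higher and 0% lower, and DESeq2 called 0. At an unadjusted p below 0.05 there was 1 member, Gss, and the share of all genes below that p is not given here. Gss had 26.6, 33.8 and 33.7 CPM in C57BL/6J high-fat mice, against 39, 35.9 and 42.6 CPM in C57BL/6J standard mice, which do not overlap (-0.32 ± 0.13, adjusted p = 1). Of the 40 members 6 did not overlap between diets, against 10.82% of all genes, and the median was -0.08, against 0.02 over all genes. Gsta3, the member that moved most in WSB/EiJ, had 89.3, 123 and 142 CPM in high-fat and 112, 122 and 123 CPM in standard C57BL/6J mice.

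Whether the diet difference itself differed among strains was tested as an interaction. With all libraries 0 of the 40 members passed in edgeR, where 3.08% of all genes did. At an unadjusted p below 0.05 there were 3 members, without the share of all genes beside them. DESeq2 called 1, Nqo1, where it called 2619 genes. Leaving out WSB/EiJ high-fat replicate 1, 2 or 3 gave 2, 1 and 1, and CAST/EiJ high-fat replicate 2 gave 1. For these fits the shares of all genes called are not given, so the counts have no background beside them. The smallest adjusted p in edgeR was that of Nqo1, at 0.0772. Beside the WSB/EiJ and C57BL/6J values given above, Nqo1 had 1.74, 1.55 and 1.94 CPM in CAST/EiJ high-fat and 1.7, 2.05 and 2.26 CPM in CAST/EiJ standard mice, and 1.93, 1.81 and 1.86 CPM in NZO/HiLtJ high-fat and 2.58, 2.57 and 2.3 CPM in NZO/HiLtJ standard mice. The NZO/HiLtJ high-fat mice were all below the standard mice. Without CAST/EiJ high-fat replicate 1, 9 members passed, where 17.6% of all genes did, and these were Gsta3, Gstz1, Prdx1, Mgst1, Gstm2, Cat, Nqo1, Gstk1 and Sod2. For Gstz1 the diet differences in that fit were -1.43 in WSB/EiJ, -0.40 in CAST/EiJ, -0.78 in NZO/HiLtJ and 0.29 in C57BL/6J.

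Genes around the 40 members were read from lists of other pathway genes, and their counts are to be read against the shares of all genes called. These were 8.61% lower and 12.9% higher in WSB/EiJ, 11.8% lower and 17.1% higher in the average, 1.94% lower and 2.95% higher in NZO/HiLtJ, and 1.6% lower and 3.27% higher in CAST/EiJ. The suppliers of NADPH, the electron source for glutathione and thioredoxin reductases, were lower on the high-fat diet in WSB/EiJ for 4 of 10 genes and higher for 0. These were Pgd of the pentose phosphate pathway (-1.78 ± 0.43, adjusted p = 0.0118), the malic enzyme Me1 (-2.54 ± 0.74, adjusted p = 0.024), Taldo1 and Tkt, at adjusted p of 0.0275 and 0.0381. Averaged over strains 2 of the 10 passed, Tkt and Taldo1, both lower. Of 17 genes of glutathione turnover and glutaredoxins, 7 were lower and 1 higher on the high-fat diet averaged over strains (edgeR). They were led by the monothiol glutaredoxin Glrx3 (-0.36 ± 0.05, adjusted p = 0.00103), the exporter Abcc1 (-0.36 ± 0.07, adjusted p = 0.00307) and Glrx2 (-0.33 ± 0.08, adjusted p = 0.00941). Anpep, an aminopeptidase, was higher (1.35 ± 0.33, adjusted p = 0.0106), with 366 and 226 CPM in WSB/EiJ high-fat replicates 1 and 2 and 323 CPM in CAST/EiJ high-fat replicate 1, libraries named above for their markers. Of 13 thioredoxin partners and methionine sulfoxide reductases, 4 were lower and 0 higher in that average, among them Txnrd3, Msrb1 and Msra. The regulators of NRF2 moved little, with 2 of 10 higher and 1 lower in the average. Bach1, a repressor at antioxidant response elements, was higher (0.25 ± 0.07, adjusted p = 0.0206), as was Mafg, and Cul3, part of the ligase that degrades NRF2, was lower (-0.12 ± 0.04, adjusted p = 0.0294). Of 12 other NRF2 targets 1, the carbonyl reductase Cbr1, was lower. In WSB/EiJ alone the turnover list had 1 higher (Ggt7) and 4 lower, led by Glrx3, Abcc1 and Glrx5. Ggt7 had 1.76, 20.8 and 1.43 CPM in WSB/EiJ high-fat mice, against 1.01, 1.14 and 1.35 CPM in WSB/EiJ standard mice, and the highest value came from the library with brain markers. The thioredoxin partners had 1 higher (Sesn3) and 4 lower, led by Msra, Txnrd3 and Msrb1. The regulators had 1 lower (Cul3), and the other targets had 1 higher (Osgin1) and 2 lower (Cbr1 and Ftl1). Osgin1 had 7.09, 6.77 and 61.1 CPM in WSB/EiJ high-fat mice, against 4.83, 4.68 and 5.2 CPM in WSB/EiJ standard mice, and the highest value came from the library with urothelial markers. The other transferases had 1 higher (Gpx7) and 1 lower (Ptges). Of 12 tested other transferases and peroxidases 1 was higher and 3, Ptges, Gsta2 and Gsta1, were lower in the average. Hpgds, the prostaglandin D synthase of the sigma class, was higher (1.03 ± 0.24, adjusted p = 0.00763). In NZO/HiLtJ it had 29.5, 40.8 and 30.5 CPM in high-fat and 6.54, 4.89 and 6.94 CPM in standard mice, without overlap (2.46 ± 0.49, adjusted p = 0.00648). In NZO/HiLtJ the lists held 4 more called genes, Bach1 (0.71 ± 0.14, adjusted p = 0.00747) and Sesn1 higher and Glrx3 and Gsta2 lower, where the liver markers given above were also lower. In CAST/EiJ 1 was called, Gpx8, which was higher, with 38.6, 13.9 and 13 CPM in CAST/EiJ high-fat mice, against 7.28, 10.8 and 8.65 CPM in CAST/EiJ standard mice. Its highest value came from replicate 1, the library short of adipocyte transcripts. None of these lists had a called gene in C57BL/6J.

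Between strains the calls in these lists went both ways. Against C57BL/6J the turnover list had 2 higher and 1 lower in NZO/HiLtJ, 5 and 2 in CAST/EiJ and 3 and 3 in WSB/EiJ, and the 12 other NRF2 targets had 2 and 1, 5 and 0, and 2 and 2. Of all genes 11.9% were higher and 11.5% lower in NZO/HiLtJ, 18.7% and 20.2% in CAST/EiJ and 13.2% and 16.4% in WSB/EiJ, and several of these counts lie near those shares. Nnt, the mitochondrial transhydrogenase that makes NADPH and of which C57BL/6J is known to carry a deletion, was higher than in C57BL/6J by 1.26 ± 0.12 (adjusted p = 1.11e-07) in CAST/EiJ and by 0.97 ± 0.12 (adjusted p = 8.26e-06) in WSB/EiJ. NZO/HiLtJ had 42.5, 42.1 and 47.7 CPM on the high-fat and 46.8, 58.7 and 47.6 CPM on the standard diet, which lay close to C57BL/6J at 52.1, 58.3 and 62.1 CPM and 55.6, 64.5 and 57.9 CPM. Slc7a11, the cystine importer that feeds glutathione synthesis, was higher than in C57BL/6J by 0.64 ± 0.22 (adjusted p = 0.0376) in NZO/HiLtJ and lower, at -1.40 ± 0.22 (adjusted p = 5.41e-05) in CAST/EiJ and -0.89 ± 0.22 (adjusted p = 0.00468) in WSB/EiJ. Glrx, the cytosolic glutaredoxin, was higher than in C57BL/6J by 1.75 ± 0.19 (adjusted p = 2.365e-06) in NZO/HiLtJ, and Glo1, the glyoxalase that uses glutathione to clear methylglyoxal, by 1.09 ± 0.08 (adjusted p = 5.17e-09) in CAST/EiJ.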

How the data were processed

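Poly(A) RNA-seq libraries, 100-base paired reads, were made from 1 fat pad of each of 24 mice, per the labels' protocols. The authors deposited estimated counts per Ensembl gene as whole numbers, and a second deposited table of upper-quartile normalised counts was not used. RSEM 1.2.1, Bowtie 0.12.8, CASAVA 1.8.0 and the builds NCBIM37 and mm9 are named in the submitters' processing notes, without role or order. Whether reads of the wild-derived strains were aligned to their own genomes is not given in the sources used here, and strain differences can therefore include differences in alignment.

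The counts were tested with the quasi-likelihood F test of edgeR 4.0.16 in R 4.3.3, with trimmed-mean scaling, the filterByExpr filter and 1 coefficient for each of the 8 groups over all 24 libraries, which leaves 16 residual degrees of freedom. Benjamini-Hochberg adjustment ran over all 20035 genes tested, and an adjusted p below 0.05 made a call. The standard error of a log2 fold change was taken from the F statistic. DESeq2 1.42.0, other scalings, no filter, subsets of libraries and leaving out each library were alternatives. The test recovered known changes when tested on simulated data. Those data held no library short of adipocyte transcripts or with transcripts of other tissues. They therefore cannot show how the test behaves with such libraries. The common biological coefficient of variation was 40.06%. Strain comparisons weight both diets equally and share their libraries with each other. Exon lengths and shared 50-base words came from an annotation of another build, so no gene coordinates are given from it. Promoter sequences are from RefSeq, build GRCm38.p6.

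The members and the lists were chosen with earlier results of these data known. For each comparison up to 6 called members per direction with the smallest adjusted p are named with statistics, up to 3 with the largest change are given per mouse, and other members by level or range. Replicate numbers follow accession order and pair nothing. Each library is 1 mouse, so p-values measure the spread between mice.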

Additional observations from a re-analysis of the deposited data

Results flagged for a closer look

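For 3 members every high-fat mouse stood above every standard mouse in 1 strain and below every standard mouse in another, and most of these differences did not pass by themselves. How many of all genes did so was not counted, so the 3 has no background. Within a strain the diets did not overlap for 10.82% (C57BL/6J) to 46.54% (NZO/HiLtJ) of all genes. Gstm7 had log2 fold changes of -0.92 in CAST/EiJ, -1.20 in NZO/HiLtJ and 0.39 in C57BL/6J, none of which passed (adjusted p = 0.161, 0.136 and 1), and its interaction of strain and diet had an adjusted p of 0.1895 (edgeR). In CAST/EiJ high-fat mice Gstm7 was at 7.95, 14.6 and 16.3 CPM, the lowest from replicate 1, the library short of adipocyte transcripts. Nqo1 stood at 1.59 in WSB/EiJ, which passed, and at -0.41 in NZO/HiLtJ and -0.48 in C57BL/6J, which did not, with an interaction adjusted p of 0.0772, and its WSB/EiJ value rested on 1 library. Prdx1 stood at -0.65 in WSB/EiJ, which passed, and 0.16 in NZO/HiLtJ, which did not, with an interaction adjusted p of 0.228. None of the 3 interactions passed.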

How the results depend on the processing

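Of 2730 values from alternatives for 88 results on single members, 2553 kept their direction and their side of the threshold, 177 kept the direction but did not pass, and 0 reversed. Counts of members called moved more than 1.5 times as follows, and the cause was not tested. Brackets hold the numbers of all genes called higher and lower in the same fit, which also differed between fits. Without the filter on low counts 9 (2805 and 1974) were called in the average over strains and 7 (3401 and 3619) for CAST/EiJ against WSB/EiJ. In CAST/EiJ upper-quartile scaling (822 and 328) and DESeq2 (1892 and 968) each called 2 diet differences. DESeq2 called 1 interaction (2619 in either direction). When libraries at or above 5 CPM of Epcam were left out, 20 were called for diet in NZO/HiLtJ (2127 and 1985). The interaction, then over CAST/EiJ, NZO/HiLtJ and C57BL/6J only, had 6 (1367 in either direction). In that set the counts were 29 for NZO/HiLtJ (4280 and 4129) and 24 for CAST/EiJ (5266 and 5655) against C57BL/6J. They were 35 for NZO/HiLtJ against CAST/EiJ (6627 and 6423). With only the groups compared the counts were 29 for diet in NZO/HiLtJ (2948 and 3019) and 27 for NZO/HiLtJ against C57BL/6J (4344 and 4271). For CAST/EiJ against WSB/EiJ the count was 5 (2198 and 2239). On the standard diet alone 20 members differed between strains (9947 in either direction). On that diet 5 were called for NZO/HiLtJ (858 and 817) and 5 for WSB/EiJ (2024 and 2391) against C57BL/6J. There were 14 for NZO/HiLtJ against WSB/EiJ (3144 and 2492) and 1 for CAST/EiJ against WSB/EiJ (2373 and 2332). On the high-fat diet alone the counts were 7 for CAST/EiJ (2425 and 2773) and 8 for WSB/EiJ (1766 and 1823) against C57BL/6J. They were 13 for NZO/HiLtJ against CAST/EiJ (3786 and 4183) and 6 for CAST/EiJ against WSB/EiJ (2392 and 2955).

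Leaving out each library in turn gave 0 to 18 members for diet in WSB/EiJ, 0 to 8 in CAST/EiJ, 0 to 7 in NZO/HiLtJ, 0 to 0 in C57BL/6J, 7 to 21 in the average, 0 to 9 for the interaction and 29 to 38 for any strain difference. Between strains the ranges were 13 to 21 for NZO/HiLtJ, 12 to 24 for CAST/EiJ and 12 to 23 for WSB/EiJ against C57BL/6J, 19 to 32 for NZO/HiLtJ against CAST/EiJ, 19 to 28 for NZO/HiLtJ against WSB/EiJ and 6 to 23 for CAST/EiJ against WSB/EiJ. The average gave 7 without C57BL/6J high-fat replicate 1, 8 without WSB/EiJ standard replicate 2, NZO/HiLtJ high-fat replicate 1 or 2 or C57BL/6J standard replicate 1, and 9 without WSB/EiJ high-fat replicate 2, WSB/EiJ standard replicate 1, CAST/EiJ standard replicate 1 or 3, NZO/HiLtJ high-fat replicate 3 or NZO/HiLtJ standard replicate 2 or 3. For most of these fits the shares of all genes called are not given, so the ranges have no background beside them. No paired analysis was possible because the replicate numbers only follow accession order.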
